A study of Danio rerio with 7 samples.

Results

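The genes described here serve transport across the blood-brain barrier and vesicle traffic through vessel walls: mfsd2aa, mfsd2ab, slc2a1a, slc2a1b, slc7a5, slc16a1a, plvapa, plvapb, cav1 and cavin1b. They were chosen by name, with earlier results of these data known. Of the 10, 9 were found among the 30421 gene rows of the count table, 8 under their own symbol and plvapb under vsg1. No other gene in the RefSeq table of GRCz12tu carries the synonym vsg1. For plvapa no row could be assigned. A row named plvap was present, but that name is a synonym of both plvapa and plvapb, so it is given under its row name and is not counted among the 9.

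The data are bulk RNA-seq of pooled heads from larval zebrafish (Danio rerio) at 5 days post fertilization (dpf), with 3 libraries from wild type larvae (WT 66, 67 and 68) and 3 from larvae carrying the hm41 mutation (hm41 69, 70 and 71). The submitters describe the mutants as leaky and the wild types as their siblings, and report that the lesion was traced to chromosome 14 and to spock1, which encodes a secreted matrix proteoglycan. The labels do not say whether the hm41 larvae were homozygous, how many heads made up a pool, or whether the pools came from separate clutches, so the p-values measure the spread between these libraries. A single-cell library mixing genotypes and ages was not analysed here.

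Brain capillaries have an endothelium without pores and with few transcytotic vesicles, and they feed the brain through membrane transporters. Mfsd2a carries omega-3 fatty acids as lysolipids and, in the mouse, holds back caveola-mediated transcytosis. Glut1 (slc2a1) carries glucose, and Plvap forms the diaphragms of fenestrae and caveolae in permeable vessels and is a textbook marker of endothelium that lacks a barrier. The comparison of hm41 with WT asks whether transcripts of this system differed in the heads of a leaky mutant.

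Levels are in CPM (counts per 1000000 counts of the normalized library total). They are small because 8 rows took up 93.6% to 95.7% of each library, which left 1664899 counts in WT 67, the shallowest, to 4959770 counts in WT 66 for all other genes. One CPM stood for 30.3 counts in WT 67 and for 91.2 counts in WT 66. For spock1 the levels were 2.78, 2.01 and 1.95 CPM in WT and 2.197, 1.67 and 1.37 CPM in hm41, which overlapped (log2 fold change -0.38 ± 0.231, SE). The endothelium was represented: all 20 endothelial markers had counts, 19 passed the filter on low counts, and cdh5, the adhesion molecule of endothelial junctions, had 452 counts over the 6 libraries. Many of the genes described here are also used outside vessels, and in whole heads fewer cells of a type and less RNA per cell cannot be told apart.

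None of the 9 genes differed between hm41 and WT heads by the test used. In the quasi-likelihood test of edgeR, adjusted by the Benjamini-Hochberg method over 19275 genes, all 9 passed the filter on low counts and 0 reached an adjusted p of 0.05, beside 0.0571% of all tested genes. At an unadjusted p under 0.05 there were also 0 of the 9, beside 10.4% of all tested genes, and DESeq2 had 0 as well. That edgeR count was 1, cav1 each time, with library totals alone, without WT 66 and without WT 67. It was 2, cav1 and mfsd2ab, with a term for the row LOC110438492 described below. The share of all tested genes was computed for the main fit only, not for these fits or DESeq2. Library totals alone also raised the median log2 fold change over all tested genes by 0.22. DESeq2 gave an adjusted p to 4 of the 9 genes (mfsd2ab, slc2a1b, slc7a5 and cav1), none of them under 0.05, and none to the other 5. The estimates were above 0 for 8 of the 9, that of slc16a1a by only 5.6e-05, and below 0 for cavin1b. Their median log2 fold change was 0.17 beside -0.02 for all tested genes. Estimates were above 0 for 5 of the 9 without WT 67 and for 6 without hm41 69. The 95% confidence intervals, given below for each gene, bound how large a difference these libraries leave possible.

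**Figure D1:**
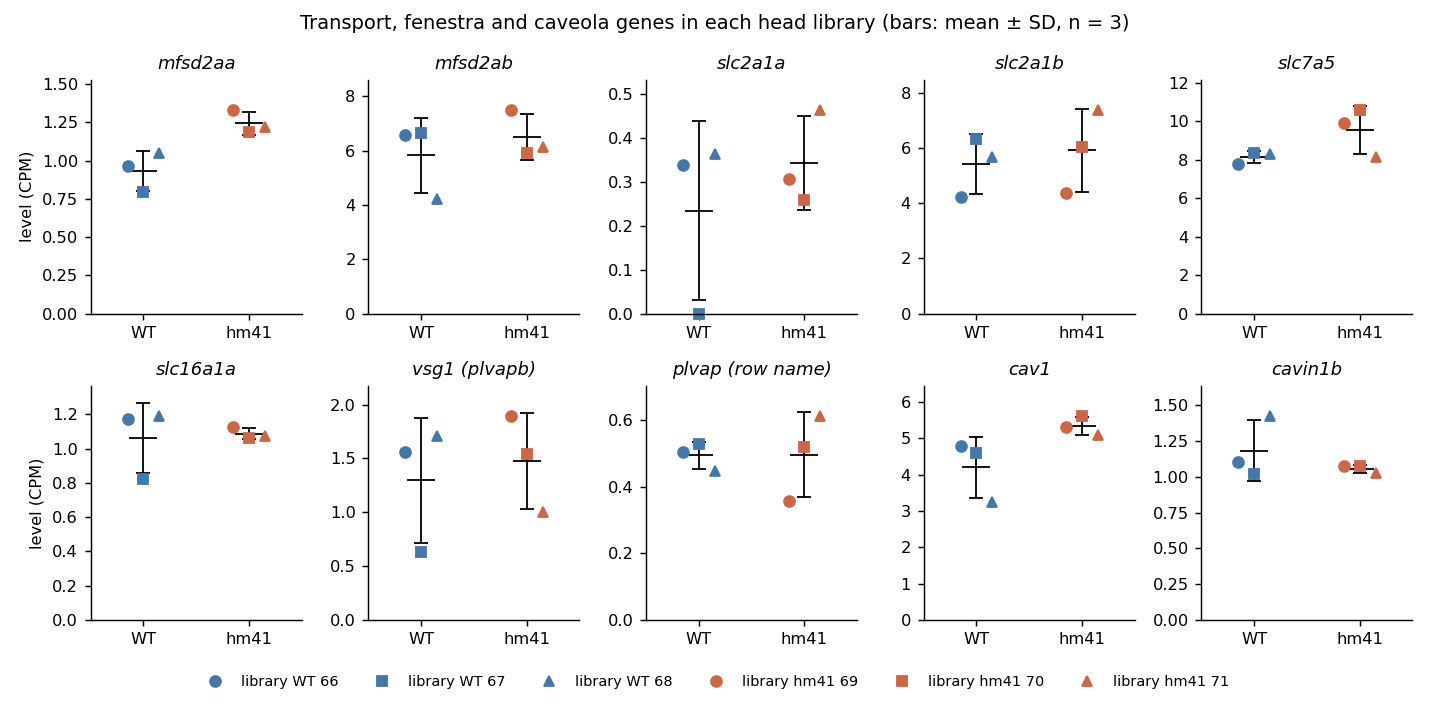
Level of each gene in CPM (vertical axes, each starting at 0) in the 3 WT and 3 hm41 libraries. Points are libraries and bars are the mean ± SD (n = 3). Groups do not overlap for mfsd2aa and cav1, and slc2a1a is at 0 in WT 67.

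The lysolipid transporter gene mfsd2aa had 0.965, 0.792 and 1.05 CPM in WT 66, 67 and 68 and 1.33, 1.19 and 1.22 CPM in hm41 69, 70 and 71. Every hm41 library thus lay above every WT library. Mean levels ± SD over 3 libraries were 0.935 ± 0.130 CPM for WT and 1.25 ± 0.0748 CPM for hm41. The fold was 1.31, with a log2 fold change of 0.39 ± 0.252 (SE; 95% confidence interval -0.14 to 0.91) and an adjusted p of 0.632 by edgeR's quasi-likelihood test. These values rested on 24 to 96 counts per library.

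Its paralog mfsd2ab, which encodes a second transporter of the same family, had 6.59, 6.67 and 4.22 CPM in WT and 7.49, 5.93 and 6.13 CPM in hm41. The groups overlapped, and WT 68 was the lowest library. The log2 fold change was 0.17 ± 0.186 (SE; 95% confidence interval -0.22 to 0.55; edgeR adjusted p = 0.818), and without WT 68 it was -0.03. The share of mfsd2aa in the counts of both paralogs was 12.8%, 10.6% and 19.9% in WT and 15.1%, 16.7% and 16.6% in hm41. The log2 ratio of mfsd2aa to mfsd2ab differed by 0.23 between the genotypes, within the spread of the WT libraries (SD 0.538; exact permutation test, two-sided, p = 0.6, and 0.9 adjusted over 3 pairs). It was 0.014 without WT 67 and 0.53 without WT 68. With 3 libraries per group such a test cannot go below 0.1.

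The glucose transporter gene slc2a1b had 4.23, 6.34 and 5.69 CPM in WT and 4.37, 6.04 and 7.37 CPM in hm41. The groups overlapped, with WT 66 and hm41 69 lowest and hm41 71 above every WT library. The log2 fold change was 0.14 ± 0.198 (SE; 95% confidence interval -0.27 to 0.56; edgeR adjusted p = 0.862). For its paralog slc2a1a there were 31, 0 and 31 counts in WT 66, 67 and 68, and hm41 69, 70 and 71 had 12, 21 and 19. The count of 0 in WT 67 allows a level of up to 0.0990 CPM, counting error only, while the other 5 libraries lay between 0.259 and 0.464 CPM. That library decided the estimate, which was 0.35 ± 0.623 (SE; 95% confidence interval -0.96 to 1.66) with it and -0.06 without it. In the ratio of slc2a1a to slc2a1b the difference was 1.30 on the log2 scale (exact permutation test, two-sided, p = 0.9, and 0.9 adjusted over 3 pairs) and -0.30 without WT 67.

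For slc7a5, which encodes the transport subunit of the large neutral amino acid carrier LAT1, the levels were 7.78, 8.35 and 8.33 CPM in WT and 9.94, 10.6 and 8.13 CPM in hm41. The WT libraries lay close together, hm41 69 and 70 lay above them, and hm41 71 lay among them. Mean levels ± SD over 3 libraries were 8.15 ± 0.320 CPM for WT and 9.55 ± 1.27 CPM for hm41, with a log2 fold change of 0.23 ± 0.159 (SE; 95% confidence interval -0.10 to 0.56; edgeR adjusted p = 0.656). Its heavy chain partner is encoded by slc3a2a and slc3a2b, whose log2 fold changes were -0.16 ± 0.167 and -0.03 ± 0.174 (SE).

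The monocarboxylate transporter gene slc16a1a, whose product carries lactate and ketone bodies, had 1.17, 0.825 and 1.19 CPM in WT and 1.12, 1.06 and 1.07 CPM in hm41. All hm41 libraries lay inside the WT range. The log2 fold change was 0.00 ± 0.257 (SE; 95% confidence interval -0.54 to 0.54). Its paralog slc16a1b had a value of -0.15 ± 0.221, and bsg, the basigin chaperone that brings these carriers to the cell surface, one of 0.30 ± 0.170 (edgeR adjusted p = 0.576).

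The fenestra diaphragm gene plvapb, counted under vsg1, had 1.56, 0.627 and 1.71 CPM in WT and 1.89, 1.54 and 1.00 CPM in hm41. The lowest library was WT 67, with 19 counts, and the groups overlapped. The log2 fold change of vsg1 was 0.12 ± 0.312 (SE; 95% confidence interval -0.53 to 0.78; edgeR adjusted p = 0.93), and without WT 67 it was -0.14. The row plvap had 0.504, 0.528 and 0.447 CPM in WT and 0.358, 0.518 and 0.610 CPM in hm41, with a log2 fold change of 0.02 ± 0.363 (SE; 95% confidence interval -0.73 to 0.78). All 6 values of that row were not whole, so some of its reads had been divided between rows. The values of vsg1 were whole in every library, so no such division showed there. The log2 ratio of plvap to vsg1 differed by -0.27 (exact permutation test, two-sided, p = 0.7, and 0.9 adjusted over 3 pairs).

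Caveolin-1, the membrane protein that shapes caveolae, is encoded by cav1, which had the smallest unadjusted p of the 9. Its levels were 4.78, 4.59 and 3.23 CPM in WT 66, 67 and 68 and 5.32, 5.60 and 5.10 CPM in hm41 69, 70 and 71. Every hm41 library lay above every WT library, and the largest gap was to WT 68. Mean levels ± SD over 3 libraries were 4.20 ± 0.842 CPM for WT and 5.34 ± 0.251 CPM for hm41, a fold of 1.28. The log2 fold change was 0.35 ± 0.178 (SE; 95% confidence interval -0.02 to 0.73; edgeR adjusted p = 0.51). Without WT 68 the value was 0.18 (edgeR adjusted p = 0.747). Together with mfsd2aa, this made 2 of the 9 genes with no overlap and higher values in hm41, beside 8.09% of all tested genes.

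Cavin1b encodes a coat protein that caveolae need to form. It had 1.11, 1.02 and 1.42 CPM in WT and 1.07, 1.07 and 1.03 CPM in hm41, so that the hm41 libraries lay between WT 67 and WT 66. The log2 fold change was -0.18 ± 0.252 (SE; 95% confidence interval -0.71 to 0.35; edgeR adjusted p = 0.862), and without WT 68 it was -0.022. The log2 ratio of cav1 to cavin1b, formed after both values were seen and therefore not tested, was 2.11, 2.15 and 1.18 in WT and 2.30, 2.38 and 2.30 in hm41. Its WT spread came from WT 68, and the difference between the genotype means was 0.51 with that library and 0.20 without it.

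**Figure D2:**
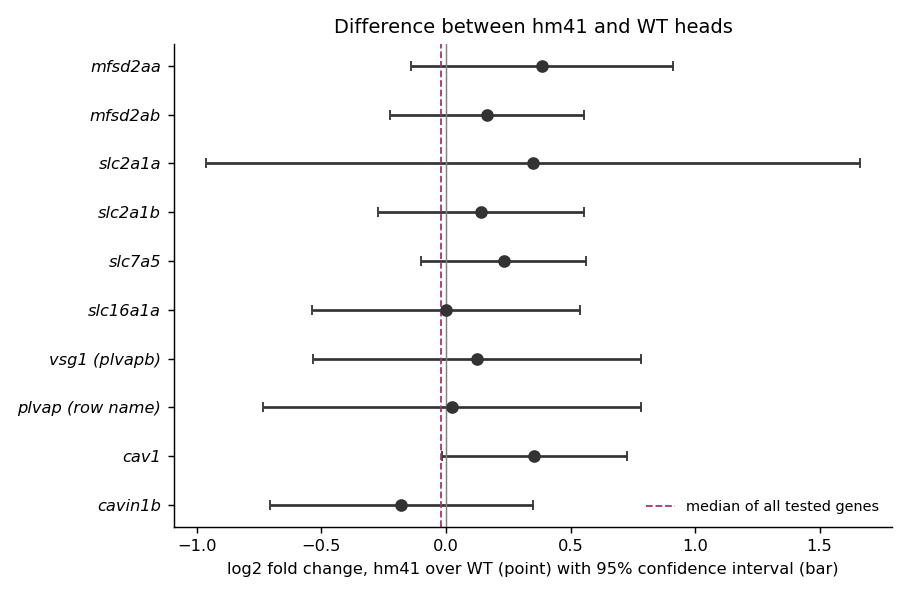
Log2 fold change of hm41 over WT for each gene (points) with its 95% confidence interval (bars). Every interval includes 0, the narrowest being that of slc7a5 (-0.10 to 0.56) and the widest that of slc2a1a (-0.96 to 1.66). The dashed line is the median of all tested genes.

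Each gene was also set against the endothelial RNA of its library. The summed level of the 20 endothelial markers ran from 12.5 to 15.8 CPM in WT and from 14.1 to 16.4 CPM in hm41, which overlapped. Relative to that sum, mfsd2aa stood at 7.14%, 6.35% and 6.61% in WT and at 8.08%, 7.94% and 8.63% in hm41, with no overlap. Cavin1b stood at 8.20%, 8.21% and 8.98% in WT and at 6.53%, 7.19% and 7.25% in hm41, also with no overlap. In CPM the groups of cavin1b overlapped. Of all tested genes, 8.09% were higher and 8.44% lower without overlap in CPM. That share was not computed relative to the marker sum. For cav1 the groups overlapped relative to the marker sum, at 35.4%, 36.8% and 20.4% in WT and 32.3%, 37.5% and 36.1% in hm41. For mfsd2aa the log2 difference was 0.29 and for cavin1b it was -0.27. Against the mean log2 CPM of the markers in place of their sum, these differences were 0.45 and -0.12. Of the 19 tested single markers, 9 had estimates above 0 and 10 below. Among them were egfl7, which encodes a secreted endothelial protein, at -1.50 and cdh5 at 0.53 (log2 fold change). Levels of egfl7 were low, at 0.373, 0.297 and 0.494 CPM in WT and 0.0767, 0.247 and 0.0488 CPM in hm41. It had 110 counts over the 6 libraries. In the exact permutation test, two-sided, mfsd2aa and cavin1b had p = 0.1, the smallest that the design allows, and 0.5 adjusted over 10 rows. The other 8 rows overlapped, with p-values from 0.6 to 1.0 by the same exact test.

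Summed levels of markers of several other cell types did not overlap between the genotypes. Neuron markers (9 rows, none at 0 throughout) summed to 90.8 to 106.8 CPM in WT and 125.5 to 158.9 CPM in hm41. Radial glia markers (8 rows) summed to 73.8 to 96.9 CPM in WT and 107.3 to 126.0 CPM in hm41. All 9 neuron and all 8 radial glia markers had estimates above 0. Of these, 6 neuron and 3 radial glia markers were higher without overlap and 0 lower, beside 8.09% and 8.44% of all tested genes. Epidermal markers (7 rows) went the other way, with 1118 to 1219 CPM in WT and 696 to 863 CPM in hm41. Single epidermal markers were mixed, with 6 estimates below 0 and 1 above. Without overlap, 3 were lower and 1 higher, beside 8.44% and 8.09% of all tested genes. The part of tissue makeup in the values of mfsd2aa, cav1 and cavin1b was not tested. Markers of the notochord, a tissue rich in caveolae, were counted in 3 rows. Their sums of 0.891 to 1.33 CPM in WT and 1.61 to 2.30 CPM in hm41 did not overlap. The defining gene of the notochord, tbxta (row ta), was at 0 in WT 67, WT 68 and hm41 69. Liver markers (8 rows, 50.2 to 56.5 CPM in WT and 50.03 to 69.6 CPM in hm41), skeletal muscle markers (8 rows, 250.7 to 487.8 and 327.3 to 369.9 CPM) and mural cell markers (10 rows, 24.4 to 31.0 and 26.6 to 30.9 CPM) overlapped. So did those of cartilage (6 rows, 203.3 to 384.1 CPM in WT and 292.8 to 388.4 CPM in hm41) and erythrocytes (7 rows, 6.58 to 11.7 and 10.1 to 10.6 CPM). Retina and pigment epithelium markers (7 rows) ran from 61.4 to 91.4 CPM in WT and from 91.6 to 107.6 CPM in hm41, narrowly without overlap. Of these markers, 6 had estimates above 0 and 1 below, with a median log2 fold change of 0.096. Without overlap, 2 were higher and 0 lower, beside 8.09% and 8.44% of all tested genes.

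**Figure D3:**
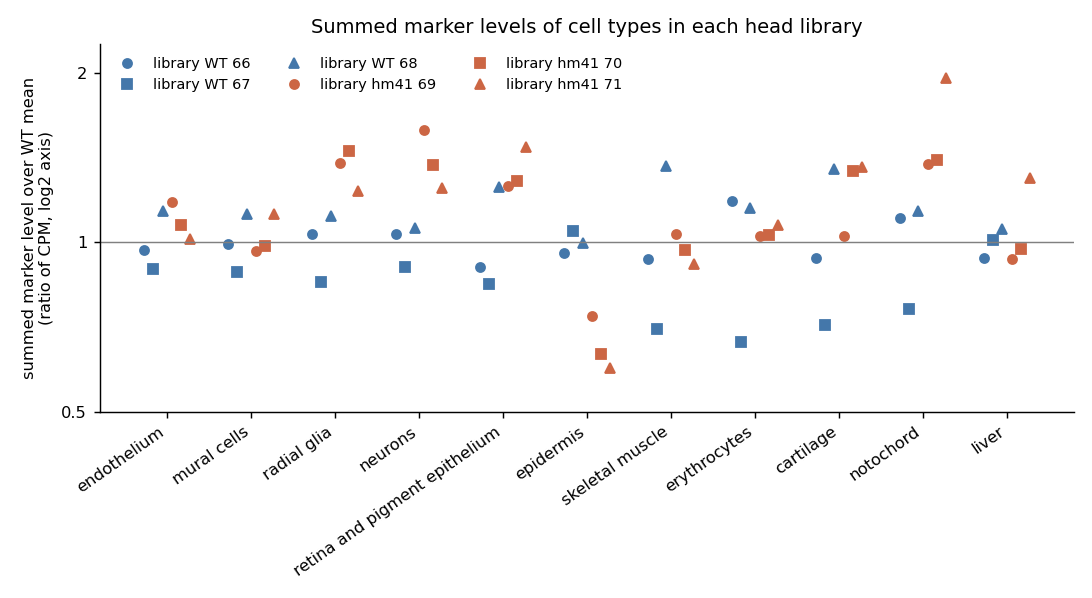
Summed marker level of each cell type list in each library, as a ratio to the mean of the 3 WT libraries (log2 axis). Endothelial sums overlap between the genotypes, whereas neuron and radial glia sums are higher and epidermal sums lower in every hm41 library.

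The libraries also split by the row LOC110438492, which held 5141165 counts in WT 68, 2743068 in hm41 70 and 2589780 in hm41 71 but no more than 6 elsewhere. The labels give no meaning to this split. Among the libraries with the row, the difference between hm41 and WT on the log2(CPM + 0.1) scale was 0.71 for cav1 and 0.18 for mfsd2aa. Among those without it the differences were 0.18 for cav1 and 0.55 for mfsd2aa. For vsg1 the values had opposite signs, -0.42 with the row and 0.86 without it. Signs also differed for slc2a1b (0.23 and -0.24), slc2a1a (-0.046 and 0.96), slc16a1a (-0.14 and 0.17), plvap (0.28 and -0.43) and cavin1b (-0.41 and 0.011). These differences rest on a single library in one genotype, WT 68 with the row and hm41 69 without it, and are values with no test. With a term for the split in the edgeR fit, 0 of the 9 genes were called, and 2, cav1 and mfsd2ab, had an unadjusted p under 0.05. The share of all tested genes under that p was not computed with the term. In that edgeR fit the log2 fold change was 0.46 for cav1 (adjusted p = 0.389), 0.35 for mfsd2ab (adjusted p = 0.518) and 0.0030 for slc2a1b.

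Genes around these transporters and vesicles were read from lists. Of 35 tested partners and other transporters of the brain endothelium, 0 passed the adjusted threshold, while 6 had higher and 2 lower values at an unadjusted p under 0.05, beside 5.35% and 5.05% of all tested genes. The list median was 0.09 on the log2 scale. Without overlap, 7 genes of the list were higher and 2 lower, beside 8.09% and 8.44% of all tested genes. The cationic amino acid transporter gene slc7a3a had 8.32, 8.02 and 8.67 CPM in WT and 10.8, 12.4 and 11.7 CPM in hm41 (log2 fold change 0.48 ± 0.153, SE; edgeR adjusted p = 0.252). The glucose transporter gene slc2a3a, of the class that serves neurons in mammals, had 2.75, 2.38 and 3.25 CPM in WT and 4.06, 3.70 and 4.54 CPM in hm41 (0.54 ± 0.183, SE; edgeR adjusted p = 0.28). Both had every hm41 library above every WT library, as did slc16a3a, a lactate exporter gene counted under si:ch211-234h8.7 (0.80 ± 0.289, SE; edgeR adjusted p = 0.32).

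Efflux pumps return lipophilic compounds from the endothelium to the blood. Of 11 tested efflux genes, 10 had estimates below 0 and 0 passed the adjusted threshold, with a list median of -0.22 beside -0.02 for all tested genes. Lower values at an unadjusted p under 0.05 were seen for 2 of them (beside 5.05% of all tested genes), and lower values without overlap for 3, beside 8.44% of all tested genes. The cyclic nucleotide exporter gene abcc5 had 15.1, 16.3 and 14.5 CPM in WT and 11.6, 10.3 and 11.4 CPM in hm41 (log2 fold change -0.46 ± 0.155, SE; edgeR adjusted p = 0.273). For abcb5 the levels were 7.16, 8.18 and 7.47 CPM in WT and 5.06, 5.44 and 6.91 CPM in hm41 (-0.39 ± 0.166, SE; edgeR adjusted p = 0.422). For abcg2a, a zebrafish counterpart of the breast cancer resistance pump, the log2 fold change was -0.40 ± 0.200 (SE). The P-glycoprotein gene abcb4, chosen for its role in zebrafish brain vessels after its values were seen, had 4.08, 5.54 and 5.47 CPM in WT and 4.22, 3.94 and 6.40 CPM in hm41, which overlapped (-0.05).

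In the list of clathrin, flotillin and endosomal uptake genes, 0 of 21 passed the adjusted threshold and 2 had higher values at an unadjusted p under 0.05 (beside 5.35% of all tested genes). Flotillins build membrane microdomains used in endocytosis without clathrin. Flot1a had 8.39, 6.90 and 6.90 CPM in WT and 13.7, 12.3 and 9.79 CPM in hm41, and flot2a had 13.2, 11.2 and 11.6 CPM in WT and 15.3, 18.7 and 16.6 CPM in hm41. In both, every hm41 library lay above every WT library. Over the list, 3 genes were higher and 0 lower without overlap, beside 8.09% and 8.44% of all tested genes. The log2 fold changes were 0.69 ± 0.169 for flot1a (SE; edgeR adjusted p = 0.147) and 0.50 ± 0.160 for flot2a (SE; edgeR adjusted p = 0.253). DESeq2 called both (adjusted p = 0.0111 and 0.0423), and without the filter on low counts edgeR called flot1a (adjusted p = 0.0348). Both settings called more genes over the whole table, 112 higher and 41 lower with DESeq2 and 67 and 64 without the filter. With the filter edgeR called 3 higher and 8 lower. The clathrin heavy chain gene cltcb had a value of 0.31 ± 0.173 (SE).

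Other caveola genes gave 0 calls and 0 genes at an unadjusted p under 0.05 among 12 tested, with a median of 0.08. The muscle caveola coat gene cavin4b had a log2 fold change of 0.58 ± 0.292 (SE), cavin2b one of 0.26 ± 0.195, and the membrane-bending protein gene pacsin2 one of 0.39 ± 0.292. These values moved when 1 library was left out, cavin4b to 1.06 and pacsin2 to 0.053 without WT 68, pacsin2 to 0.70 without WT 67, and cavin2b to 0.084 without WT 66. Cav2, the usual partner of caveolin-1, had 0.252, 0.726 and 0.482 CPM in WT and 0.434, 0.568 and 0.537 CPM in hm41, and a value of 0.17 ± 0.405. Of 14 tested genes for lysolipids and omega-3 fatty acids, 11 had estimates above 0 (median 0.26), 0 were called and 1 had a higher value at an unadjusted p under 0.05 (beside 5.35% of all tested genes). The elongase gene elovl4b, for very long chain fatty acids, had 0.61 ± 0.242 (SE), and the fatty acid binding protein genes fabp7a and fabp11a had 0.36 ± 0.176 and 0.56 ± 0.288. Without WT 68 fabp11a was at 0.95, and without WT 67 fabp7a was at 0.22. Fabp7a was also among the radial glia markers summed above.

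Wnt signals from neural cells induce Glut1 and hold back Plvap in brain endothelium. Of 14 tested genes of that route, 0 were called, 1 had a lower value at an unadjusted p under 0.05 (beside 5.05% of all tested genes) and the median was 0.02. The feedback target axin2 had 4.02, 4.95 and 3.22 CPM in WT and 2.91, 2.88 and 3.32 CPM in hm41, so that WT 68 and hm41 71 overlapped (log2 fold change -0.41 ± 0.189, SE; edgeR adjusted p = 0.47). The coreceptor gene lrp5 had -0.28 ± 0.161 and the transcription factor gene lef1 had -0.42 ± 0.275 (SE). Groups did not overlap for 1 gene of the list that was higher and for 1, lrp5, that was lower, beside 8.09% and 8.44% of all tested genes. Leaving out 1 library took lef1 to -0.14 (hm41 69) and axin2 and lrp5 to -0.26 and -0.15 (WT 67). With library totals alone lrp5 was at -0.049, in a fit that raised the median over all tested genes by 0.22.

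**Figure D4:**
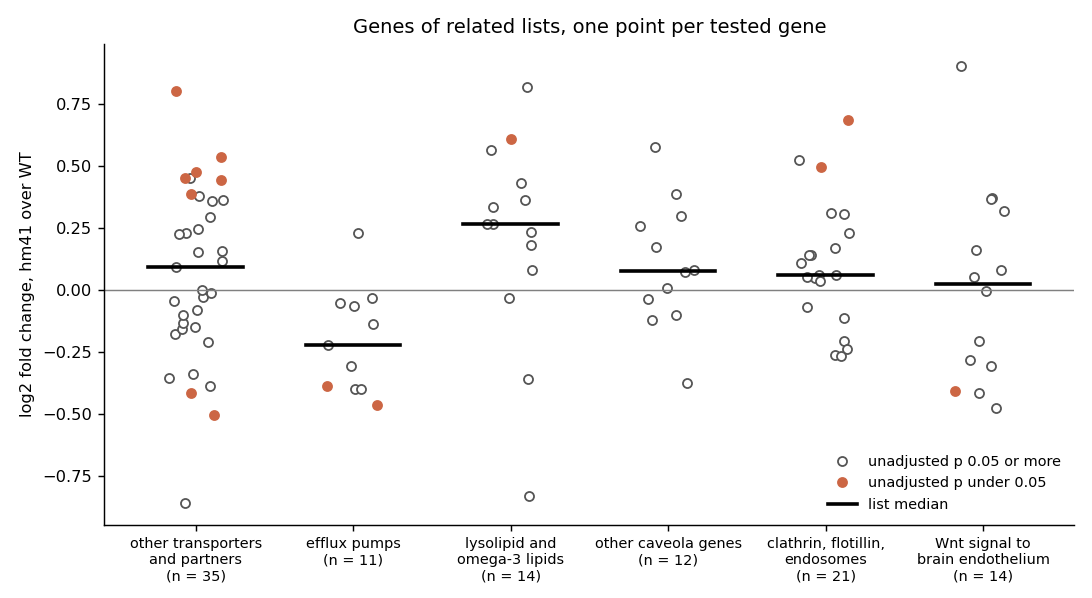
Log2 fold change of hm41 over WT for each tested gene of 6 lists. Filled points have an unadjusted p under 0.05, and black lines are list medians, which run from -0.22 for efflux pumps to 0.26 for lysolipid and omega-3 genes.

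Patterns over the 6 libraries were compared with those of 11107 tested genes with at least 50 counts per library on average, by the root mean square distance between centred log2 CPM values. The distances given are the smallest of that search, and no baseline for them was computed. The nearest to mfsd2aa were rabgef1 (distance 0.0424) and emc7 (0.0432), against an SD of 0.266 for mfsd2aa itself. Those nearest to cav1 were rfx7 (0.0383) and camlg (0.0449), and those nearest to slc7a5 were yipf6 (0.0191) and med22 (0.0470). For slc2a1b they were si:dkey-91m11.5 and gsto2, for mfsd2ab LOC110439786 and arhgap39, and for slc16a1a sema6dl and srsf4. For vsg1 they were degs1 and arpc5b, and for cavin1b mycn and atp8b5b. No gene came near slc2a1a (closest distance 0.921, si:ch73-269m23.4), whose pattern was set by its count of 0. None of the 10 genes lies on chromosome 14 in GRCz12tu, the chromosome that the submitters linked to the phenotype.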

How the data were processed

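Expected counts per gene are what the authors deposited, with no scaling between libraries. The submitters' processing notes name RSEM, TopHat, Bowtie2 and the build GRCz11 without saying what each was used for. Annotation release and strandedness of counting are not stated in these sources. Between 17.8% and 23.2% of a library's values were not whole, and counts were rounded before testing. All tests ran on the whole table with edgeR 4.0.16 in R 4.3.3 (filterByExpr, TMM factors, robust quasi-likelihood F-test, two-sided, Benjamini-Hochberg over 19275 genes, threshold 0.05). Standard errors are Wald errors of the quasi-likelihood fit. DESeq2 1.42.0 was an alternative. Log2 ratios between genes used a pseudocount of 0.5 counts and exact permutation tests in scipy 1.17.1. Of these steps, only the edgeR fit was tested on simulated data. The genes and lists were chosen with earlier results of these data known. Named genes are the members, spock1, the 3 genes with the smallest p per list and each member's 2 nearest patterns. Other names are partners or paralogs of members, the markers cdh5, egfl7 and tbxta, and abcb4; egfl7, cdh5 and abcb4 were named after their values were seen. Symbols were matched through RefSeq synonyms of GRCz12tu, used for names and chromosomes only. Counting limits cover counting error only.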

Additional observations from a re-analysis of the deposited data

How the results depend on the processing

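The count of 0 called genes among the 9 held in all 13 alternatives: RLE factors, library totals alone, no filter, at least 10 counts in 3 libraries, DESeq2, removal of the 8 most abundant rows, a term for LOC110438492 and each library left out. No paired analysis was run because the labels name no clutch and pair no libraries. Scaling by totals raised the median over all genes by 0.22, put the median of the 9 at 0.43 and turned cavin1b to 0.024. Over fits without 1 library the median of the 9 ran from 0.14 to 0.26. In these fits small values changed sign: mfsd2ab ran from -0.033 to 0.28, slc2a1a from -0.064 to 0.69, slc2a1b from -0.023 to 0.32, slc16a1a from -0.12 to 0.077, vsg1 from -0.14 to 0.34 and plvap from -0.11 to 0.20. With the LOC110438492 term slc16a1a was -0.024 and plvap -0.047. Relative to endothelial markers, leaving out 1 library gave -0.035 to 0.39 for cav1, -0.26 to 0.25 for mfsd2ab, -0.11 to 2.03 for slc2a1a, -0.23 to 0.25 for slc2a1b, -0.16 to 0.024 for slc16a1a, -0.23 to 0.35 for vsg1 and -0.35 to 0.13 for plvap. With the mean log2 CPM of the markers, slc16a1a was 0.082, slc2a1b 0.14 and plvap 0.027. The ratio of slc2a1a to slc2a1b ran from -0.30 to 2.19 and that of plvap to vsg1 from -0.69 to 0.24. In the related lists DESeq2 called 2 genes and edgeR without a filter 1, against 0, and the cause was not tested. Over all genes 3 higher and 8 lower were called, against 32 and 15 by totals, 67 and 64 with no filter, 112 and 41 with DESeq2, 7 and 12 with the LOC110438492 term, 21 and 23 without WT 68, 13 and 7 without hm41 69, and 0 and 6 without hm41 70.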
